A study of Homo sapiens with 18 samples.

Results

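The nuclear genes of the respiratory chain were taken by symbol from the count tables of 2 human diffuse large B-cell lymphoma lines treated with JIB-04, an inhibitor of histone demethylases of the Jumonji C type. The rule took symbols that begin with NDUFA, NDUFB, NDUFC, NDUFS or NDUFV (but not NDUFAF), UQCR, COX4I, COX5, COX6, COX7, COX8 or ATP5, together with SDHA, SDHB, SDHC and SDHD. It found 92 of 23686 gene symbols. Of these, 83 encode subunits: 37 of complex I, 4 of complex II, 8 of complex III, 19 of complex IV and 15 of complex V. NDUFA4 and NDUFA4L2 carry complex I names but were counted with complex IV, where NDUFA4 is now placed. The other 9 symbols are retrocopies, read-through or antisense transcripts, or proteins named after a subunit (ATP5EP2, ATP5L2, UQCRBP1, UQCRHL, ATP5J2-PTCD1, NDUFC2-KCTD14, NDUFB2-AS1, ATP5S and ATP5SL). Symbols are those of the deposited tables, so the ATP synthase genes appear under older names such as ATP5B for ATP5F1B.

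OCI-Ly1, a line of the germinal-centre B-cell type, was grown in IMDM, and TMD8, a line of the activated B-cell type, in RPMI 1640, so line and medium changed together. Each line had 3 groups of 3 libraries: cells with 0.01% DMSO as the vehicle, cells with 150 nM JIB-04 and cells with 500 nM JIB-04. The libraries of a group were prepared as technical triplicates, per the labels, and nothing says that they came from separate cultures, so the p-values below measure only the spread between these libraries. The labels name no time of treatment and no batch. Both media held fetal bovine serum, and each of these types of lymphoma is represented by 1 established line.

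The respiratory chain passes electrons from NADH (complex I) and succinate (complex II) through ubiquinone, complex III and cytochrome c to oxygen at complex IV, and complex V uses the resulting proton gradient to make ATP. Complexes I, III, IV and V join nuclear subunits to a core encoded in mitochondrial DNA, whereas complex II is wholly nuclear. The nuclear subunit genes lie scattered over the chromosomes, and the transcription factors NRF1 and GABP (also called NRF2 in this setting), with YY1 and the PGC-1 coactivators, are known to act on many of them. In B cells the demand on the chain rises on activation, and some diffuse large B-cell lymphomas rely strongly on it. The subunits encoded in mitochondrial DNA were not analysed here.

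In OCI-Ly1 the libraries totalled 17579679 to 32651041 estimated counts, and the TMD8 libraries 9550016 to 20509447. In these bulk libraries, fewer cells of a type and less RNA per cell cannot be told apart, and every level here is relative to the rest of the library. Transcripts per 1000000 (TPM) could not be compared across doses or lines, because 6 short RNAs (MIR3687, MIR3648, MIR663A, MIR663B, RPPH1 and RMRP) took 13.7% to 14.2% of TPM in OCI-Ly1 with DMSO or 150 nM and 20.9% to 22.4% at 500 nM. In TMD8 they took 49.2% to 57.3% with DMSO, 57.8% to 61.7% at 150 nM and 63.9% to 68.1% at 500 nM. Changes are therefore given from counts scaled by TMM, as counts per 1000000 (CPM), and TPM serves only to rank genes or to check for markers within a group. With DMSO COX7C had the highest TPM of the members in both lines, at 1371 ± 72.6 in OCI-Ly1 and 429 ± 55.5 in TMD8 (SD, n = 3).

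The labelled cell type was checked against markers. All TPM sums here describe each line by itself and are not compared between lines, because the short RNAs took unlike shares of TPM. With DMSO the 5 B-cell markers MS4A1, CD79A, CD79B, PAX5 and CD22 summed to 903 to 947 TPM in OCI-Ly1 and 768 to 898 in TMD8. Germinal-centre markers (BCL6, MME, MYBL1 and LMO2) summed to 173 to 188 TPM in OCI-Ly1 with DMSO and 32.4 to 40.4 in TMD8, and activated B-cell markers (IRF4, FOXP1, PIM1 and ENTPD1) to 157 to 162 and 442 to 554. The 5 T-cell markers summed to 27.2 to 29.8 TPM in OCI-Ly1 with DMSO and to at most 2.13 in any TMD8 library, where CD3E was at 0. The 5 myeloid markers each had a group mean under 1 TPM in both lines. At 500 nM the sums were 832 to 910 TPM for the B-cell, 164 to 178 for the germinal-centre, 261 to 279 for the activated and 12.3 to 14.2 for the T-cell markers in OCI-Ly1. The TMD8 libraries at that dose had sums of 517 to 595, 16.5 to 18.3, 253 to 290 and 1.77 to 2.13 TPM, and these carry the same shift of TPM between doses. On the TMM scale at 500 nM, edgeR called 3 of the 5 B-cell markers lower and 2 higher in OCI-Ly1, and in TMD8 3 lower and 1 higher. For these and the marker counts that follow, 25.9% of all tested genes were called lower and 27.7% higher in OCI-Ly1. In TMD8 the shares of all tested genes were 30.7% and 29.9%. Of the germinal-centre markers 2 of 4 were lower and 1 higher in OCI-Ly1, against 1 of 3 tested lower and 2 higher in TMD8. Of the activated B-cell markers 3 of 4 were higher and 1 lower in OCI-Ly1, whereas in TMD8 2 were lower and 1 higher. Of the 5 T-cell markers 3 were lower in OCI-Ly1 (median log2 fold change -1.13), and of the 2 tested in TMD8 1 was higher. Myeloid markers gave no call of 2 tested in OCI-Ly1 by edgeR (1 at an unadjusted p under 0.05) and 1 higher call of 3 in TMD8. The part of these marker shifts in the results below was not tested.

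The promoters of some respiratory chain genes are shown with the letters of 4 motifs known for them. A RefSeq promoter on GRCh38.p14, from 250 bases before to 50 after the start, was found for 68 of the 83 subunit genes; genes without one include ATP5B, ATP5D, ATP5G3, NDUFC2, COX6C, SDHC and UQCRB. On either strand, CGCATGCGC (the NRF1 motif) stood in 10 of the 68 (14.7%) and in 1.92% of 35116 promoters of the same length. CCGGAAGT (GABP) stood in 9 (13.2%, against 4.14%) and AAGATGGCG (YY1) in 8 (11.8%, against 1.75%), while GGGCGGG (Sp1) stood in 17 (25%, against 33.1%). Matches of the NRF1 motif overlap where CGCATGCGC is read on both strands of 1 palindrome, as in SDHD. The median log2 fold change at 500 nM against DMSO was -0.19 in OCI-Ly1 for the 10 genes with the NRF1 letters and -0.23 for the other 55 tested, and in TMD8 -0.61 and -0.50. With and without the GABP letters the medians were -0.14 and -0.27 in OCI-Ly1, and in TMD8 -0.47 and -0.55. For the YY1 letters they were -0.16 and -0.25 in OCI-Ly1, and in TMD8 -0.57 and -0.50. For the Sp1 letters they were -0.21 and -0.24 in OCI-Ly1, and in TMD8 -0.55 and -0.51. A match describes letters in a window and not binding, and these medians were not tested against each other.

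The 150 bases before the start of 4 genes with the NRF1 letters that fell in TMD8 follow, 5′ to 3′ along the gene, with every match of the 4 motifs in capitals. ATP5I (chr4:674277-674426, minus strand) and ATP5J (chr21:25735055-25735204, minus strand) encode subunits e and F6 of complex V, SDHD (chr11:112086723-112086872, plus strand) a membrane anchor of complex II, and NDUFS6 (chr5:1801257-1801406, plus strand) a subunit of complex I. ATP5J also holds the YY1 letters 57 bases before the start, and SDHD the GABP letters at 78 bases.
ATP5I: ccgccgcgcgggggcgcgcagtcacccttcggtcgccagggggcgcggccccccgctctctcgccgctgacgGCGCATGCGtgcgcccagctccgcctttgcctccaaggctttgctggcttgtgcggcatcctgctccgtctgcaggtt
ATP5J: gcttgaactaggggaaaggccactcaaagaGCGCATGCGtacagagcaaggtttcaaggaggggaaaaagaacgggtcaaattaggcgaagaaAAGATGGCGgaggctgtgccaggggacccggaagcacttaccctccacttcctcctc
SDHD: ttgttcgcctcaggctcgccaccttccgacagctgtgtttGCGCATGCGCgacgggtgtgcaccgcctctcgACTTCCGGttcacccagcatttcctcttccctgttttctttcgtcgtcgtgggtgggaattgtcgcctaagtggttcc
NDUFS6: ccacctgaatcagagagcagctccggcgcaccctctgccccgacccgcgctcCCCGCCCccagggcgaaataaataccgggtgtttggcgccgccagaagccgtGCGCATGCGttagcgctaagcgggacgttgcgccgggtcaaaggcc

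The next 2 hold the GABP letters and belong to subunits of complex III, UQCRQ (chr5:132866492-132866641, plus strand; fell strongly in TMD8) and UQCRH (chr1:46303548-46303697, plus strand; fell little in both lines). The last 2 are counter-examples with the same letters: ATP5G2 (chr12:53676084-53676233, minus strand; NRF1 letters), which was not called in TMD8, and NDUFA13 (chr19:19516075-19516224, plus strand; GABP letters), which rose in OCI-Ly1.
UQCRQ: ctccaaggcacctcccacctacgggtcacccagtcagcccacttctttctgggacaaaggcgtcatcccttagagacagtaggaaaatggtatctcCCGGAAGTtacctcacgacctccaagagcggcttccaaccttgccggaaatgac
UQCRH: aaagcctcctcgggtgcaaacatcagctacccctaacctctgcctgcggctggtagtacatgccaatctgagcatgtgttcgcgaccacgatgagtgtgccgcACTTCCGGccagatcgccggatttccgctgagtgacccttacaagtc
ATP5G2: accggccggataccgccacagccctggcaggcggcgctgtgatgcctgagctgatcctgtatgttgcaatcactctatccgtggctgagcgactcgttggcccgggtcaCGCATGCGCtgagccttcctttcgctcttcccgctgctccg
NDUFA13: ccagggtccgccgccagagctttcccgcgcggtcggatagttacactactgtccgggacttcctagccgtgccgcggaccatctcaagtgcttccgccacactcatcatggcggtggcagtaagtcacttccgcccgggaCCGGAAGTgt

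In SDHB and NDUFS4, described below, the YY1 letters stand 10 and 21 bases after the start, and the 29 bases around each match are at chr1:17054004-17054032, minus strand, and chr5:53560650-53560678, plus strand.
SDHB: gtcaggagccAAGATGGCGgcggtggtcg
NDUFS4: tgcctgcagcAAGATGGCGgcggtgtcaa

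Expression of the respiratory chain genes fell with JIB-04 in both lines, but from a different dose on. In OCI-Ly1 nothing was called at 150 nM and most subunit genes of complexes I, III, IV and V were lower at 500 nM. In TMD8 most were lower already at 150 nM and lower still at 500 nM. A gene was called where the adjusted p of edgeR's quasi-likelihood test was under 0.05 over all tested genes, and 85 members were tested in each line.

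In OCI-Ly1 at 150 nM, 0 of 85 members were called by edgeR, and 0 by DESeq2, while 8 had an unadjusted p under 0.05. Of all tested genes, 0.748% were called higher and 0.141% lower. The members' median log2 fold change was -0.021, against -0.0046 for all tested genes. In OCI-Ly1 at 500 nM, 56 members were called lower (all genes 25.9%) and 4 higher (all genes 27.7%). The median was -0.26, against -0.0033 for all tested genes. The libraries of 59 members did not overlap and were lower at 500 nM, which held for 29.3% of all tested genes.

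In TMD8 at 150 nM, 66 members were called lower (all genes 25%) and 3 higher (all genes 19.2%), with a median of -0.31 against 0.011. In TMD8 at 500 nM, 71 were called lower (all genes 30.7%) and 3 higher (all genes 29.9%). The median there was -0.51, against 0.041 for all tested genes. The libraries of 72 members did not overlap and were lower at 500 nM, against 33.3% of all tested genes. On log2(TPM + 1), without TMM, the median of all tested genes itself moved by -0.22 in TMD8 and 0.10 in OCI-Ly1 at 500 nM. Relative to the median of all tested genes, members then stood at -0.64 in TMD8 and -0.22 in OCI-Ly1.

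**Figure D1:**
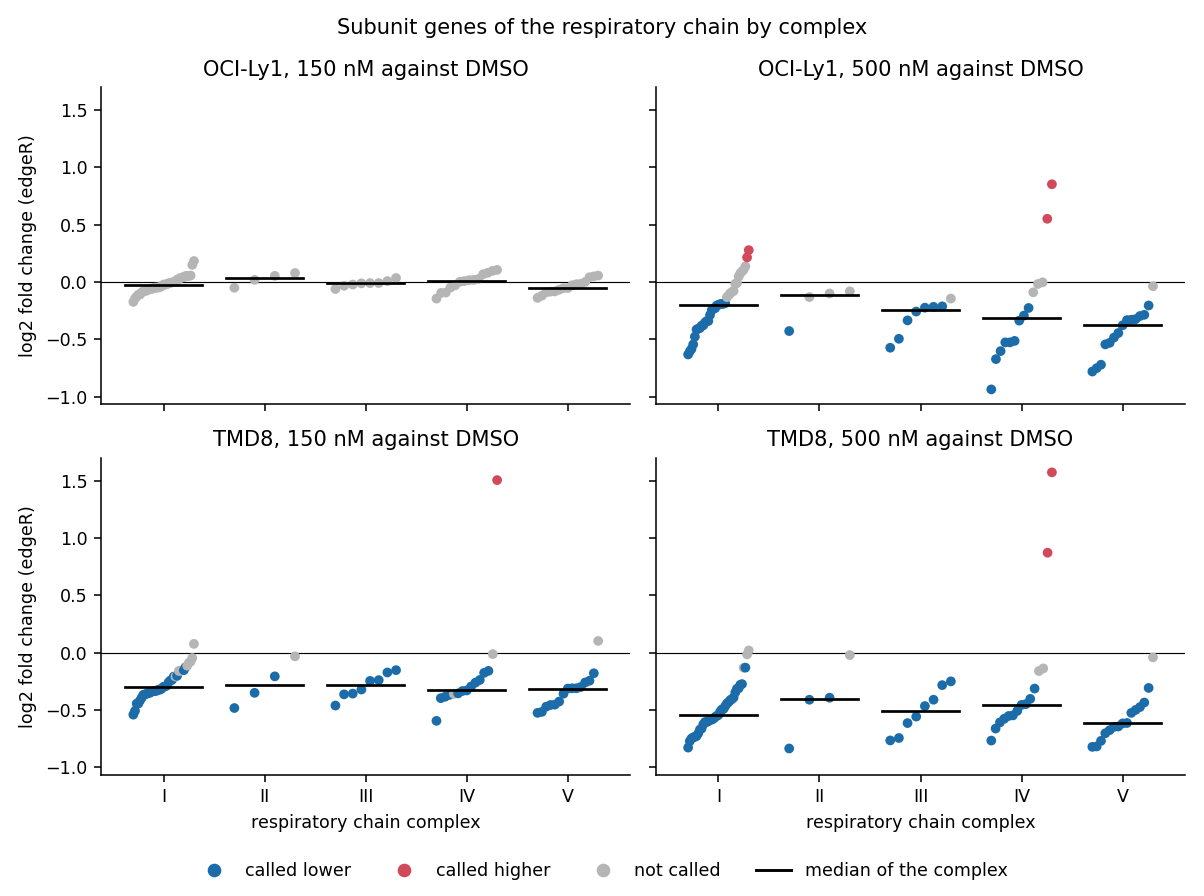
Log2 fold change (edgeR, y axis) of each tested subunit gene against DMSO by complex (x axis), for both lines and doses; each point is a gene, blue where called lower, red where called higher and grey where not called, and black bars are medians of a complex. At 150 nM the OCI-Ly1 points lie around 0 and are all grey, whereas most TMD8 points are blue. At 500 nM most points are blue in both lines, with complex V lowest by median.

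Summed over the subunit genes of a complex, levels at 500 nM in OCI-Ly1 were below DMSO by 11.8% for complex I, 9.51% for complex II, 19.5% for complex III, 18.9% for complex IV and 29.2% for complex V. In TMD8 the same differences were 28.1%, 18.2%, 28.3%, 28.9% and 34.0%. Complex V thus showed the largest percent fall of the 5 sums in each line. Its genes summed to 4202 ± 145 CPM with DMSO in OCI-Ly1, 4012 ± 93.2 with 150 nM and 2975 ± 16.1 with 500 nM (SD, n = 3). In TMD8 they summed to 3418 ± 95.7, 2605 ± 181 and 2257 ± 28.2 CPM. The 4 genes of complex II showed the smallest percent fall, with 452 ± 17.7 and 409 ± 6.76 CPM at the ends in OCI-Ly1, and 409 ± 8.38 and 334 ± 3.92 CPM in TMD8. At 150 nM the sums in TMD8 were already lower by between 12.4% (complex II) and 23.8% (complex V). In OCI-Ly1 at that dose complex I was lower by 1.51%, complex III by 1.14%, complex IV by 0.087% and complex V by 4.51%, while complex II stood at 101% of DMSO. These sums weigh the most abundant genes most and carry no test of their own.

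**Figure D2:**
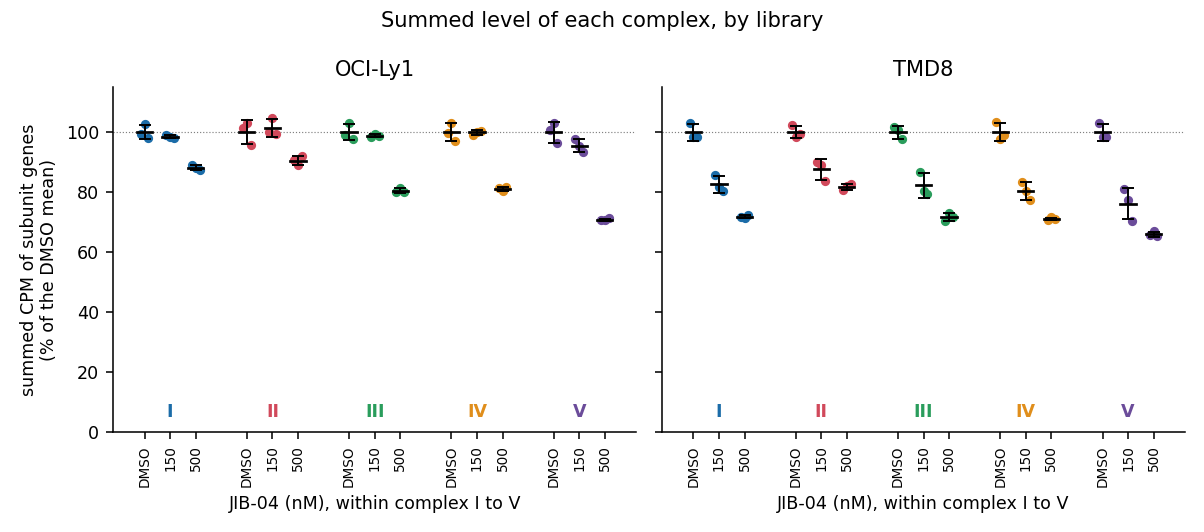
Summed CPM of the subunit genes of each complex in each library, as a percent of the DMSO mean (y axis), by JIB-04 dose within complex I to V (x axis); points are libraries, black bars the mean and the SD of 3. In OCI-Ly1 the 150 nM points stay near 100% and the 500 nM points drop, to the lowest level in complex V. In TMD8 the points step down at each dose.

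Complex I, the NADH dehydrogenase, had the most genes, and all 37 were tested in both lines. In OCI-Ly1 at 500 nM, 23 fell (all genes 25.9%) and 2 rose (all genes 27.7%), with a median of -0.20. In TMD8, 28 had fallen at 150 nM (all genes 25%) and 34 at 500 nM (all genes 30.7%), with a median of -0.54 at 500 nM. None rose there (all genes 19.2% at 150 nM and 29.9% at 500 nM). The 7 core subunits encoded in the nucleus, such as NDUFV1, NDUFV2, NDUFS1 and NDUFS8, carry the flavin, the iron-sulfur clusters and the start of the quinone path. At 500 nM 4 of the 7 fell in OCI-Ly1 (all genes 25.9%) and 7 of 7 in TMD8 (all genes 30.7%). NDUFV2, of the NADH module, had 200.1, 208 and 208 CPM with DMSO, 196, 208 and 212 with 150 nM and 158, 156 and 159 with 500 nM in OCI-Ly1. Its TMD8 libraries had 273, 235 and 241 CPM with DMSO, 196, 184 and 172 with 150 nM and 148, 146 and 159 with 500 nM. The 500 nM libraries lay below all DMSO libraries in both lines (edgeR log2 fold change -0.38, SE 0.049, adjusted p = 4.46e-06 in OCI-Ly1, and edgeR log2 fold change -0.73, SE 0.062, adjusted p = 1.58e-08 in TMD8). NDUFV1, NDUFS7 and NDUFS8 fell in TMD8 alone (log2 fold changes -0.28, -0.43 and -0.55). In OCI-Ly1 they stood at -0.12, 0.092 and 0.047 and were not called.

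The accessory subunits of complex I surround the core and are needed for its assembly and stability. Among them the 11 NDUFB genes, whose products sit in the membrane arm, gave 8 lower calls in OCI-Ly1 (all genes 25.9%) and 11 in TMD8 (all genes 30.7%) at 500 nM. NDUFB3 had the lowest fold change of complex I in OCI-Ly1, with 65.1, 72.6 and 69.3 CPM with DMSO, 62.4, 70.1 and 65.7 with 150 nM and 47.0, 40.7 and 45.6 with 500 nM (edgeR log2 fold change -0.63, SE 0.07, adjusted p = 6.67e-07). Its 500 nM libraries lay below all others of that line. TMD8 libraries had 42.7, 43.2 and 40.6 CPM with DMSO, 34.2, 32.0 and 32.0 with 150 nM and 30.4, 32.8 and 29.6 with 500 nM of it (edgeR log2 fold change -0.44, SE 0.064, adjusted p = 9.69e-06), and there the 150 nM and 500 nM libraries overlapped. NDUFAB1, the mitochondrial acyl carrier protein, had the lowest fold change of complex I in TMD8, with 63.1, 58.2 and 56.5 CPM with DMSO, 47.3, 38.3 and 37.1 with 150 nM and 33, 33 and 34.3 with 500 nM (edgeR log2 fold change -0.83, SE 0.081, adjusted p = 8.07e-08). The 3 groups did not overlap. In OCI-Ly1 it fell by less (edgeR log2 fold change -0.40, SE 0.062, adjusted p = 2.98e-05). NDUFA3, the complex I gene with the highest TPM in TMD8, had log2 fold changes of -0.41 in OCI-Ly1 and -0.41 in TMD8 at 500 nM. With a trend on transcript length removed, neither fall of NDUFA3 was called (-0.047, edgeR adjusted p = 0.63, and -0.16, edgeR adjusted p = 0.08). NDUFB1, NDUFB4, NDUFC1 and NDUFS5 were each among the lower values of complex I in both lines, at -0.58, -0.60, -0.54 and -0.48 in OCI-Ly1, and in TMD8 -0.70, -0.67, -0.62 and -0.66. A further 14 called lower in both lines were NDUFA1, NDUFA2, NDUFA6, NDUFA7, NDUFA11, NDUFB2, NDUFB6, NDUFB8, NDUFB9, NDUFB10, NDUFS1, NDUFS3, NDUFS6 and NDUFV3. They ran from -0.38 (NDUFA1) to -0.18 (NDUFB9) in OCI-Ly1 and from -0.77 (NDUFB9) to -0.27 (NDUFA2) in TMD8.

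NDUFC2, a membrane-arm subunit, was among the genes that set the lines apart. OCI-Ly1 libraries had 57.3, 55.2 and 55.9 CPM with DMSO, 51.7, 64.5 and 58.4 with 150 nM and 57.1, 57.6 and 63.0 with 500 nM of it, with overlapping groups (edgeR log2 fold change 0.077, SE 0.074, adjusted p = 0.39). TMD8 libraries had 66.3, 59.3 and 61.5 CPM with DMSO, 51.3, 48.8 and 46.1 with 150 nM and 39.7, 41.4 and 42.0 with 500 nM, with no overlap between any 2 groups (edgeR log2 fold change -0.61, SE 0.062, adjusted p = 1.50e-07). A further 10 genes of complex I were called lower at 500 nM in TMD8 and not in OCI-Ly1: NDUFA12, NDUFA5, NDUFA8, NDUFA9, NDUFB11, NDUFB5, NDUFB7, NDUFS7, NDUFS8 and NDUFV1. Both complex I genes that rose did so in OCI-Ly1. NDUFS4, an accessory subunit near the NADH module whose loss is a known cause of Leigh syndrome, had 25.9, 22.8 and 26.1 CPM with DMSO, 24.5, 24.6 and 27.9 with 150 nM and 32.6, 29.7 and 28.5 with 500 nM (edgeR log2 fold change 0.28, SE 0.082, adjusted p = 0.0083). Its call was lost without replicate 1 of 500 nM (0.22, edgeR adjusted p = 0.06) or replicate 2 of DMSO (0.22, edgeR adjusted p = 0.051). NDUFA13, also known as GRIM-19 and the complex I gene with the highest TPM in OCI-Ly1, had 199, 199 and 208 CPM with DMSO, 217, 201 and 212 with 150 nM and 241, 237 and 226 with 500 nM (edgeR log2 fold change 0.21, SE 0.05, adjusted p = 0.0016). In TMD8 neither was called at 500 nM (-0.13 for NDUFS4 and 0.019 for NDUFA13). On log2(TPM + 1), where the median of all tested genes moved by -0.22, both were lower there (-0.48, limma adjusted p = 0.0058 for NDUFS4, and -0.35, limma adjusted p = 0.0042 for NDUFA13). With the trend on transcript length removed NDUFA13 was instead called higher in TMD8 (0.26, edgeR adjusted p = 6.2e-04). With log2(TPM + 1) centred neither rise in OCI-Ly1 was called (0.19, limma adjusted p = 0.058 for NDUFS4, and 0.12, limma adjusted p = 0.077 for NDUFA13). Centring left the median of all tested genes in OCI-Ly1 at -0.12. NDUFA10 was called in neither line at 500 nM (-0.017 in OCI-Ly1 and -0.015 in TMD8).

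Complex II, succinate dehydrogenase, belongs both to the chain and to the citric acid cycle. At 500 nM its 4 genes differed in the size of their change and in whether it was called. SDHA, the flavoprotein that oxidises succinate, had 107, 105 and 99.9 CPM with DMSO, 107, 92.6 and 102 with 150 nM and 95.2, 96.0 and 93.3 with 500 nM in OCI-Ly1 and 186, 178 and 179 CPM with DMSO, 179, 179 and 174 with 150 nM and 178, 179.8 and 177 with 500 nM in TMD8. It was not called at 500 nM in OCI-Ly1 (edgeR log2 fold change -0.13, SE 0.059, adjusted p = 0.069) or in TMD8 (edgeR log2 fold change -0.021, SE 0.043, adjusted p = 0.69). The OCI-Ly1 libraries at 500 nM were nevertheless all below those with DMSO, and without replicate 3 of DMSO the fall was called (-0.16, edgeR adjusted p = 0.049). On log2(TPM + 1), where the median of all tested genes moved by -0.22 in TMD8, SDHA was called lower there (-0.39, limma adjusted p = 0.0027). With that scale centred SDHA was called lower in both lines (-0.22, limma adjusted p = 0.0066 in OCI-Ly1, and -0.13, limma adjusted p = 0.013 in TMD8). Centring left the median of all tested genes at -0.12 in OCI-Ly1. With only the 6 libraries compared SDHA was called lower in OCI-Ly1 too (-0.13, edgeR adjusted p = 0.049). The SDHA gene has near-identical pseudogene copies, between which reads may have been split.

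SDHB, the iron-sulfur subunit that takes electrons from SDHA, fell in TMD8 alone. There it had 87.7, 84.2 and 85.2 CPM with DMSO, 63.9, 64.8 and 55.9 with 150 nM and 47.5, 47.3 and 49.5 with 500 nM, with no overlap between any 2 groups. The fall at 500 nM was 44% (edgeR log2 fold change -0.84, SE 0.06, adjusted p = 1.62e-09), and at 150 nM 28.4% (edgeR log2 fold change -0.48, SE 0.057, adjusted p = 3.14e-06). OCI-Ly1 libraries had 109, 103 and 101 CPM with DMSO, 109, 108 and 109 with 150 nM and 98.5, 98.0 and 100.3 with 500 nM of SDHB (edgeR log2 fold change -0.081, SE 0.052, adjusted p = 0.2; 95% interval -0.18 to 0.021), so that a fall of the size seen in TMD8 lay outside the interval. With log2(TPM + 1) centred, where the median of all tested genes stood at -0.12, a small fall was called there (-0.17, limma adjusted p = 0.0051). SDHC, one of the membrane anchors that hold the quinone site, fell in both lines at 500 nM. It had 64.7, 61.9 and 57.5 CPM with DMSO and 45.2, 44.7 and 46.9 with 500 nM in OCI-Ly1 (edgeR log2 fold change -0.43, SE 0.069, adjusted p = 5.12e-05) and 93.3, 92.7 and 93.7 CPM with DMSO and 67.9, 72.3 and 73.1 with 500 nM in TMD8 (edgeR log2 fold change -0.39, SE 0.053, adjusted p = 4.43e-06), with no overlap in either. SDHD, the other anchor, fell in TMD8 from 48.8 ± 2.24 to 36.8 ± 0.78 CPM (SD, n = 3; edgeR log2 fold change -0.41, SE 0.075, adjusted p = 1.18e-04). In OCI-Ly1 its groups overlapped (edgeR log2 fold change -0.10, SE 0.072, adjusted p = 0.25).

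**Figure D3:**
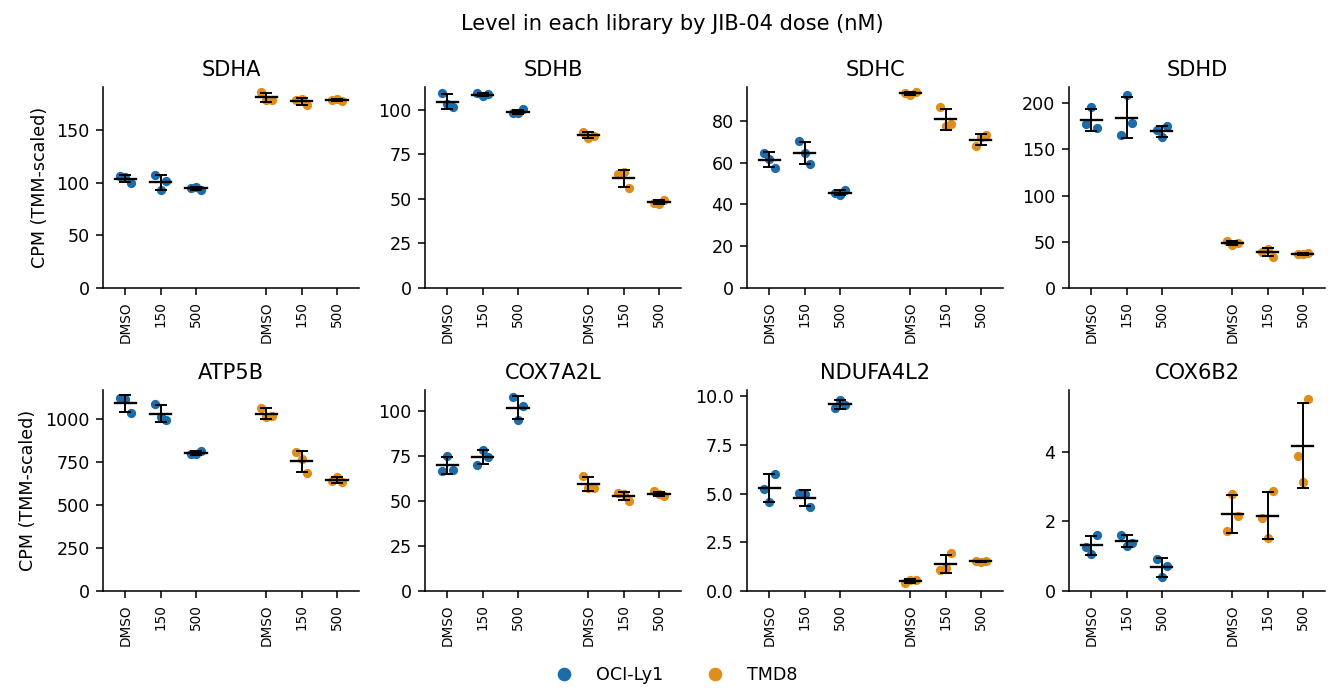
CPM after TMM scaling (y axis, from 0) in each library of 8 genes, by JIB-04 dose in nM (x axis), with OCI-Ly1 in blue and TMD8 in orange; points are libraries and black bars the mean and SD of 3. SDHB and ATP5B step down with dose in TMD8, SDHA stays near its DMSO level in both lines, COX7A2L rises at 500 nM in OCI-Ly1 alone, and COX6B2 moves in opposite directions at 500 nM.

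Complex III, the cytochrome bc1 complex, fell in nearly every gene. Its 8 nuclear genes under the symbol rule gave 7 lower calls in OCI-Ly1 at 500 nM (all genes 25.9%), with a median of -0.24. All 8 were called lower in TMD8 at 150 nM (all genes 25%) and at 500 nM (all genes 30.7%). Their medians there were -0.28 at 150 nM and -0.51 at 500 nM. UQCRFS1, the Rieske iron-sulfur protein that passes electrons to cytochrome c1, had 137, 136 and 133 CPM with DMSO, 139.8, 128 and 135 with 150 nM and 97.4, 97.1 and 93.7 with 500 nM in OCI-Ly1 (edgeR log2 fold change -0.50, SE 0.053, adjusted p = 4.67e-07). Its level in TMD8 was 192, 175 and 171 CPM with DMSO, 139, 134 and 118 with 150 nM and 107, 110.2 and 103 with 500 nM (edgeR log2 fold change -0.74, SE 0.061, adjusted p = 9.61e-09). Its 500 nM libraries lay below all DMSO libraries in both lines. UQCRC1 and UQCRC2, the core proteins, and UQCR10, a small subunit, fell in both lines, with log2 fold changes of -0.34, -0.26 and -0.22 in OCI-Ly1, and in TMD8 -0.56, -0.41 and -0.61. UQCRB, a subunit at the ubiquinone site, was the complex III gene that fell furthest in OCI-Ly1 and least in TMD8. It had 181, 215 and 212 CPM with DMSO, 181, 201 and 213 with 150 nM and 141, 134 and 134 with 500 nM in OCI-Ly1 (edgeR log2 fold change -0.57, SE 0.069, adjusted p = 2.00e-06). TMD8 libraries had 109, 110.2 and 101 CPM with DMSO, 103, 89.2 and 96.0 with 150 nM and 84.0, 92.1 and 93.9 with 500 nM of UQCRB (edgeR log2 fold change -0.25, SE 0.06, adjusted p = 0.0014). The DMSO and 500 nM libraries did not overlap in either line. Its call at 150 nM in TMD8 (edgeR log2 fold change -0.15, SE 0.058, adjusted p = 0.043) was lost without any 1 of 4 libraries, replicates 2 and 3 of 150 nM and replicates 1 and 2 of DMSO, with log2 fold changes from -0.14 to -0.10 and edgeR adjusted p from 0.076 to 0.21.

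UQCRQ, a small subunit next to cytochrome b, showed the reverse order of the lines, at -0.22 in OCI-Ly1 and -0.77 in TMD8 on the log2 scale. It had 65.7, 59.4 and 61.6 CPM with DMSO, 50.9, 51.0 and 47.7 with 150 nM and 36.4, 34.8 and 38.9 with 500 nM in TMD8, with no overlap between any 2 groups (edgeR log2 fold change -0.77, SE 0.062, adjusted p = 8.87e-09). With library size alone its fall in OCI-Ly1 was not called (-0.13, edgeR adjusted p = 0.061). UQCR11, the smallest subunit, fell in TMD8 (edgeR log2 fold change -0.47, SE 0.066, adjusted p = 8.01e-06) and was not called in OCI-Ly1 (edgeR log2 fold change -0.14, SE 0.077, adjusted p = 0.12). It was called there with log2(TPM + 1) centred (-0.23, limma adjusted p = 0.034), where the median of all tested genes stood at -0.12. Without replicate 3 of 150 nM its call at 150 nM in TMD8 was lost (-0.17, edgeR adjusted p = 0.065). UQCRH, the hinge protein and the complex III gene with the highest TPM in both lines, fell by little: 13.7% in OCI-Ly1 (edgeR log2 fold change -0.21, SE 0.061, adjusted p = 0.0067) and 17.8% in TMD8 (edgeR log2 fold change -0.28, SE 0.048, adjusted p = 6.13e-05). Without replicate 2 of DMSO the fall in OCI-Ly1 was not called (-0.14, edgeR adjusted p = 0.053), with library size alone it was not called either (-0.12, edgeR adjusted p = 0.081), and with the length trend removed it turned to 0.03. At 150 nM in TMD8 the call of UQCRH (edgeR log2 fold change -0.17, SE 0.048, adjusted p = 0.0068) was lost without replicate 2 of 150 nM (-0.14, edgeR adjusted p = 0.052), and with the length trend removed its call at 500 nM there (-0.042, edgeR adjusted p = 0.49).

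CYC1 and CYCS, outside the symbol rule, encode cytochrome c1 of complex III and cytochrome c itself. CYC1 was at 220.4 ± 18 CPM with DMSO and 177 ± 2.74 at 500 nM in OCI-Ly1 (SD, n = 3) (edgeR log2 fold change -0.32, SE 0.061, adjusted p = 2.97e-04) and at 133 ± 5.60 and 93.1 ± 1.81 in TMD8 (edgeR log2 fold change -0.51, SE 0.057, adjusted p = 4.22e-07). CYCS was at 506 ± 28.1 CPM with DMSO and 394 ± 7.12 at 500 nM in OCI-Ly1 (edgeR log2 fold change -0.36, SE 0.08, adjusted p = 9.61e-04) and at 236 ± 7.28 and 151 ± 4.62 in TMD8 (edgeR log2 fold change -0.65, SE 0.05, adjusted p = 4.74e-09). Both therefore fell in both lines, though on log2(TPM + 1) the fall of CYCS in OCI-Ly1 was not called (-0.22, limma adjusted p = 0.13).

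Complex IV, cytochrome c oxidase, has widely expressed subunits and isoforms restricted to certain tissues. Of its 19 genes, 14 were tested in OCI-Ly1 and 15 in TMD8. At 500 nM, 9 fell (all genes 25.9%) and 2 rose (all genes 27.7%) in OCI-Ly1, with a median of -0.32. In TMD8 11 fell (all genes 30.7%) and 2 rose (all genes 29.9%), with a median of -0.46. COX7C, which had the highest TPM of all members, had 260.4, 293 and 269.8 CPM with DMSO, 275, 277 and 276 with 150 nM and 169, 172 and 175 with 500 nM in OCI-Ly1. That was a fall of 37.3% at 500 nM (edgeR log2 fold change -0.67, SE 0.051, adjusted p = 5.34e-09). Its TMD8 libraries had 163, 146 and 148 CPM with DMSO, 134, 129 and 119 with 150 nM and 117, 116 and 113 with 500 nM, a fall of 24.4% (edgeR log2 fold change -0.40, SE 0.055, adjusted p = 4.86e-06). The 500 nM libraries lay below all others in both lines. COX7B, another small subunit, had the lowest fold change of complex IV in TMD8, at -0.59 at 150 nM and -0.77 at 500 nM on the log2 scale. It fell in OCI-Ly1 too (-0.60). COX4I1, the main subunit of the nuclear set, and COX5A, its partner in the first step of assembly, fell in both lines, at -0.23 and -0.53 in OCI-Ly1, and in TMD8 -0.31 and -0.58. COX6C, COX7A2 and NDUFA4 did too, at -0.34, -0.29 and -0.53 in OCI-Ly1, and in TMD8 -0.51, -0.46 and -0.55. COX5B, COX6A1 and COX8A fell in TMD8 (-0.55, -0.66 and -0.45) and were not called in OCI-Ly1 (-0.0033, -0.018 and -0.09).

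COX7A2L, the factor that joins complexes III and IV into supercomplexes, rose in OCI-Ly1. It had 66.4, 75.1 and 67.3 CPM with DMSO, 70.1, 78.3 and 74.4 with 150 nM and 108, 94.6 and 103 with 500 nM there, and the 500 nM libraries lay above all others (edgeR log2 fold change 0.55, SE 0.067, adjusted p = 2.07e-06). Its TMD8 libraries had 63.6, 57.1 and 57.3 CPM with DMSO, 54.1, 53.7 and 49.8 with 150 nM and 55.2, 53.5 and 52.8 with 500 nM, and it was not called at 500 nM (edgeR log2 fold change -0.14, SE 0.059, adjusted p = 0.054), though the DMSO and 500 nM libraries did not overlap. Without replicate 2 or 3 of DMSO the TMD8 fall was called (-0.17, edgeR adjusted p = 0.04, and -0.16, edgeR adjusted p = 0.044). It was called too with no low-count filter (-0.16, edgeR adjusted p = 0.031) and with log2(TPM + 1) centred (-0.25, limma adjusted p = 0.002). At 150 nM the call in TMD8 (edgeR log2 fold change -0.18, SE 0.058, adjusted p = 0.02) was lost without replicate 3 of 150 nM (-0.11, edgeR adjusted p = 0.21) or replicate 1 of DMSO (-0.13, edgeR adjusted p = 0.062).

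The restricted isoforms of complex IV were at very low levels. COX4I2, COX6A2, COX7B2 and COX8C, the isoforms of lung and hypoxia, heart and skeletal muscle, and testis, had 0 to 2 counts in every library of both lines and were not tested. COX7A1, a muscle isoform, had 3 to 11 counts in OCI-Ly1, where it was not tested, and 13 to 32 in TMD8, where it was not called at either dose (-0.36 at 150 nM and -0.16 at 500 nM). NDUFA4L2, a paralogue of NDUFA4 known to be induced in hypoxia, rose in both lines at 500 nM. OCI-Ly1 libraries had 5.23, 4.58 and 6.01 CPM with DMSO, 5.05, 4.99 and 4.31 with 150 nM and 9.38, 9.84 and 9.55 with 500 nM of it (edgeR log2 fold change 0.85, SE 0.13, adjusted p = 2.71e-05), and the 500 nM libraries lay above all others. In TMD8, at 6 to 39 counts a library, it had 0.38, 0.56 and 0.55 CPM with DMSO, 1.09, 1.17 and 1.93 with 150 nM and 1.52, 1.50 and 1.53 with 500 nM. The treated libraries lay above those with DMSO at both doses (edgeR log2 fold change 1.50, SE 0.32, adjusted p = 8.64e-04 at 150 nM, and edgeR log2 fold change 1.57, SE 0.33, adjusted p = 4.27e-04 at 500 nM).

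COX6B2, the testis isoform of subunit 6B, was called lower at 500 nM in OCI-Ly1 and higher in TMD8, with 10 to 59 counts a library. It had 1.27, 1.06 and 1.61 CPM with DMSO, 1.61, 1.28 and 1.38 with 150 nM and 0.92, 0.39 and 0.72 with 500 nM in OCI-Ly1 (edgeR log2 fold change -0.94, SE 0.33, adjusted p = 0.022). TMD8 libraries had 1.71, 2.80 and 2.16 CPM with DMSO, 2.10, 1.52 and 2.88 with 150 nM and 3.89, 3.14 and 5.52 with 500 nM of it (edgeR log2 fold change 0.87, SE 0.26, adjusted p = 0.0068). The 500 nM libraries did not overlap with DMSO in either line. The OCI-Ly1 call was lost without replicate 2 of 500 nM (-0.69, edgeR adjusted p = 0.076) or replicate 3 of DMSO (-0.76, edgeR adjusted p = 0.1), and the TMD8 call without replicate 3 of 500 nM (0.65, edgeR adjusted p = 0.0504). On log2(TPM + 1) the TMD8 rise was not called (0.29, limma adjusted p = 0.075). COX6B1, the widely expressed isoform, fell in both lines (-0.51 in OCI-Ly1 and -0.61 in TMD8).

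Complex V, the ATP synthase, had the lowest median of the complexes at 500 nM in TMD8 (-0.62) and in OCI-Ly1 (-0.38). Of its 15 genes, 14 fell in OCI-Ly1 (all genes 25.9%) and 14 in TMD8 (all genes 30.7%) at 500 nM, 13 of them in both lines. None rose (all genes 27.7% in OCI-Ly1 and 29.9% in TMD8). In the catalytic head, ATP5A1 encodes the alpha subunit and had 1042, 1073 and 999 CPM with DMSO, 984, 962 and 918 with 150 nM and 614, 600.4 and 597 with 500 nM in OCI-Ly1. Its level at 500 nM was thus 41.8% below DMSO, the lowest fold change of complex V in that line (edgeR log2 fold change -0.78, SE 0.043, adjusted p = 6.98e-11). TMD8 libraries had 1053, 969.5 and 966 CPM with DMSO, 771, 738 and 648 with 150 nM and 635, 640.2 and 634 with 500 nM of it (edgeR log2 fold change -0.65, SE 0.06, adjusted p = 4.55e-08). No group overlapped with another in either line, but the 150 nM fall in OCI-Ly1 was not called (edgeR log2 fold change -0.12, SE 0.043, adjusted p = 0.3). ATP5B, the catalytic beta subunit and the complex V gene with the highest TPM in TMD8, had 1123, 1113 and 1032 CPM with DMSO, 1084, 1009.7 and 992 with 150 nM and 794, 793 and 813 with 500 nM in OCI-Ly1 (edgeR log2 fold change -0.45, SE 0.046, adjusted p = 2.81e-07). Its TMD8 libraries had 1064, 1009 and 1014 CPM with DMSO, 804, 768 and 683 with 150 nM and 638, 663 and 631 with 500 nM (edgeR log2 fold change -0.68, SE 0.057, adjusted p = 1.46e-08). The 500 nM libraries lay below all others in both lines. ATP5C1, the gamma subunit of the rotating stalk, fell in TMD8 (edgeR log2 fold change -0.62, SE 0.062, adjusted p = 1.11e-07) and had 163, 165 and 167 CPM with DMSO and 163, 157 and 163 with 500 nM in OCI-Ly1. It was not called there, although the 500 nM libraries were all at or below those with DMSO (edgeR log2 fold change -0.037, SE 0.05, adjusted p = 0.56; 95% interval -0.14 to 0.062). With log2(TPM + 1) centred, where the median of all tested genes stood at -0.12, it was called lower (-0.13, limma adjusted p = 0.043). ATP5E, the epsilon subunit and the complex V gene with the highest TPM in OCI-Ly1, fell in both lines, at -0.21 in OCI-Ly1 and -0.47 in TMD8. With library size alone its OCI-Ly1 fall was not called (-0.12, edgeR adjusted p = 0.077). With the length trend removed that value turned to 0.095.

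The proton channel of complex V turns on a ring of c subunits, whose mature protein is the same from ATP5G1, ATP5G2 and ATP5G3. ATP5G3 had 277, 306 and 251 CPM with DMSO, 263, 255 and 239.7 with 150 nM and 163, 174 and 169 with 500 nM in OCI-Ly1 (edgeR log2 fold change -0.72, SE 0.064, adjusted p = 4.09e-08). TMD8 libraries had 98.0, 92.2 and 95.4 CPM with DMSO, 75.3, 65.5 and 59.6 with 150 nM and 56.3, 53.6 and 51.3 with 500 nM of it, the lowest fold change of complex V there (edgeR log2 fold change -0.82, SE 0.07, adjusted p = 1.55e-08). Its 500 nM libraries lay below all others in both lines. ATP5G1 fell in both lines too (-0.75 in OCI-Ly1 and -0.50 in TMD8), as did ATP5D, the delta subunit of the head (-0.54 and -0.31). ATP5G2 had 153, 157 and 137 CPM with DMSO, 148, 138 and 133 with 150 nM and 122, 120.0 and 115 with 500 nM in OCI-Ly1 and fell there (edgeR log2 fold change -0.32, SE 0.061, adjusted p = 2.29e-04). Its TMD8 libraries had 113, 136 and 142 CPM with DMSO, 138, 144 and 137 with 150 nM and 127, 123 and 129.7 with 500 nM, with DMSO and 500 nM overlapping (edgeR log2 fold change -0.041, SE 0.066, adjusted p = 0.61; 95% interval -0.17 to 0.089). Without replicate 1 of DMSO the TMD8 value was called lower (-0.14, edgeR adjusted p = 0.015). It was also called lower on log2(TPM + 1) (-0.40, limma adjusted p = 0.0013), where the median of all tested genes moved by -0.22. The other subunits of the membrane part and the outer stalk (ATP5F1, ATP5H, ATP5I, ATP5J, ATP5J2, ATP5L and ATP5O) all fell in both lines at 500 nM. Their log2 fold changes ran from -0.53 (ATP5J2) to -0.29 (ATP5I) in OCI-Ly1 and from -0.82 (ATP5I) to -0.43 (ATP5L) in TMD8. ATP5I was thus at the top of that range in one line and at the bottom in the other.

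A pair of complex V partners under other symbols gave a contrast. USMG5, which helps dimers of the enzyme form, fell in both lines (-0.27 in OCI-Ly1 and -0.77 in TMD8 on the log2 scale). With the length trend removed the OCI-Ly1 value was 0.025. ATPIF1, the inhibitor that stops the enzyme from running backwards, went from 158 ± 3.52 to 176 ± 6.55 CPM in OCI-Ly1, a small rise (edgeR log2 fold change 0.16, SE 0.05, adjusted p = 0.013). That call was lost without any 1 of 3 libraries, replicates 1 and 2 of 500 nM and replicate 2 of DMSO (log2 fold changes 0.13 to 0.15, edgeR adjusted p 0.051 to 0.075). In TMD8 ATPIF1 fell from 16.6 ± 1.59 to 11.6 ± 0.96 CPM (edgeR log2 fold change -0.50, SE 0.11, adjusted p = 4.95e-04).

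Of the 9 symbols that are no subunit genes, 2 of 7 tested fell at 500 nM in OCI-Ly1 (all genes 25.9%). In TMD8 1 of 6 fell (all genes 30.7%) and 1 rose (all genes 29.9%). These counts lay near or below the shares of all genes. ATP5J2-PTCD1, a read-through transcript that shares exons with ATP5J2 and PTCD1, had 15.9, 27.5 and 17.1 CPM with DMSO, 13.0, 19.5 and 24.5 with 150 nM and 8.88, 7.13 and 9.65 with 500 nM in OCI-Ly1 (edgeR log2 fold change -1.21, SE 0.21, adjusted p = 8.81e-05). In TMD8 its libraries ran from 0 to 114 counts and it was not called (edgeR log2 fold change -0.87, SE 0.75, adjusted p = 0.33), whereas without replicate 1 of DMSO it was (-1.42, edgeR adjusted p = 0.024). ATP5L2, a retrocopy of ATP5L, fell in OCI-Ly1 (edgeR log2 fold change -0.45, SE 0.15, adjusted p = 0.018). That call was lost without replicate 1 of 500 nM (-0.43, edgeR adjusted p = 0.058) or replicate 1 of DMSO (-0.39, edgeR adjusted p = 0.076), and in TMD8 it stood at -0.011. ATP5SL, since found to act in complex I assembly, fell in TMD8 (edgeR log2 fold change -0.42, SE 0.069, adjusted p = 4.61e-05) and was not called in OCI-Ly1 (0.11). ATP5S, a coupling factor related to it in name, rose in TMD8 (edgeR log2 fold change 0.22, SE 0.092, adjusted p = 0.048). That rise was lost without any 1 of 5 libraries (log2 fold changes 0.11 to 0.24, edgeR adjusted p 0.058 to 0.35) and held without replicate 2 of 500 nM. With DESeq2 it was not called (0.21, DESeq2 adjusted p = 0.15). On log2(TPM + 1) it turned to -0.15. NDUFB2-AS1, antisense to NDUFB2, was called in neither line at 500 nM (-0.35 in OCI-Ly1 and 0.012 in TMD8). Without replicate 1 of 500 nM it was called lower in OCI-Ly1 (-0.48, edgeR adjusted p = 0.031). The counting is not stated to use strand, so its reads cannot be told apart from those of NDUFB2. UQCRBP1, UQCRHL, NDUFC2-KCTD14 and ATP5EP2 had at most 49, 18, 15 and 0 counts in any library. UQCRBP1 was not tested in OCI-Ly1, UQCRHL and NDUFC2-KCTD14 were not tested in TMD8, and ATP5EP2 was tested in neither. UQCRBP1 rose at 150 nM in TMD8 (edgeR log2 fold change 0.70, SE 0.27, adjusted p = 0.047), and leaving out any 1 of 5 libraries (all but replicate 2 of 150 nM) ended that call, as did DESeq2 (0.69, DESeq2 adjusted p = 0.13; without a library, edgeR adjusted p 0.056 to 0.23). Retrocopies share sequence with their parent genes, so reads may have been split between them.

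The lines were compared by testing, for each gene, how far its change from DMSO in OCI-Ly1 exceeded its change in TMD8. At 150 nM this difference was positive and called for 51 of 87 members tested (all genes 15%) and negative for 1, NDUFA4L2 (all genes 8.33%). At 500 nM it was positive for 44 (all genes 28.2%) and negative for 7 (all genes 18.1%). The median difference was 0.29 at 150 nM and 0.22 at 500 nM, against -0.0023 and 0.049 for all tested genes. Of the 83 members tested in both lines, 75 had the lower log2 fold change in TMD8 at 150 nM and 65 at 500 nM. At 500 nM, 52 of the 83 were called lower in both lines, 19 in TMD8 alone and 3 (ATP5G2, ATP5J2-PTCD1 and ATP5L2) in OCI-Ly1 alone. Of all tested genes, 25.9% were called lower in OCI-Ly1 and 30.7% in TMD8. The shares of all genes called lower in both lines or in 1 line alone were not counted. COX6B2 was lower in OCI-Ly1 and higher in TMD8, NDUFA4L2 was higher in both, COX7A2L, NDUFA13 and NDUFS4 were higher in OCI-Ly1 alone, and ATP5S was higher in TMD8 alone. NDUFA10, NDUFB2-AS1 and SDHA were called in neither. Across these 83 genes, which share their libraries and are not independent replicates, Pearson's r of the log2 fold changes in the lines was 0.364 at 500 nM. It was -0.143 at 150 nM, where OCI-Ly1 had no calls.

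Among the subunit genes called, the line difference at 500 nM was largest for SDHB (difference 0.78, SE 0.081, edgeR adjusted p = 1.94e-08), COX7A2L (difference 0.72, SE 0.094, edgeR adjusted p = 6.86e-07) and NDUFC2 (difference 0.71, SE 0.10, edgeR adjusted p = 2.43e-06). These 3 fell less, or rose, in OCI-Ly1. In the other direction it was -1.78 for COX6B2, -0.29 for UQCRB and -0.25 for ATP5G2 (edgeR adjusted p 9.70e-04, 0.016 and 0.03). Further negative calls were COX7C (-0.24), ATP5L2 (-0.42) and UQCRBP1, which had 0 to 2 counts at 500 nM in OCI-Ly1 and gets no value. Under all 20 alternatives 37 of the positive calls and 1 of the negative calls at 500 nM held. By complex, 11 subunit genes of complex I, 2 of complex II, 1 of complex III, 3 of complex IV and 1 of complex V were called lower in TMD8 and not in OCI-Ly1 at 500 nM. The share of all tested genes with that pattern was not counted. For 4 genes of complex V (ATP5A1, ATP5D, ATP5G1 and ATP5G3), which fell by over 0.5 in OCI-Ly1 on the log2 scale, no line difference was called (-0.10, -0.21, -0.22 and 0.13).

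**Figure D4:**
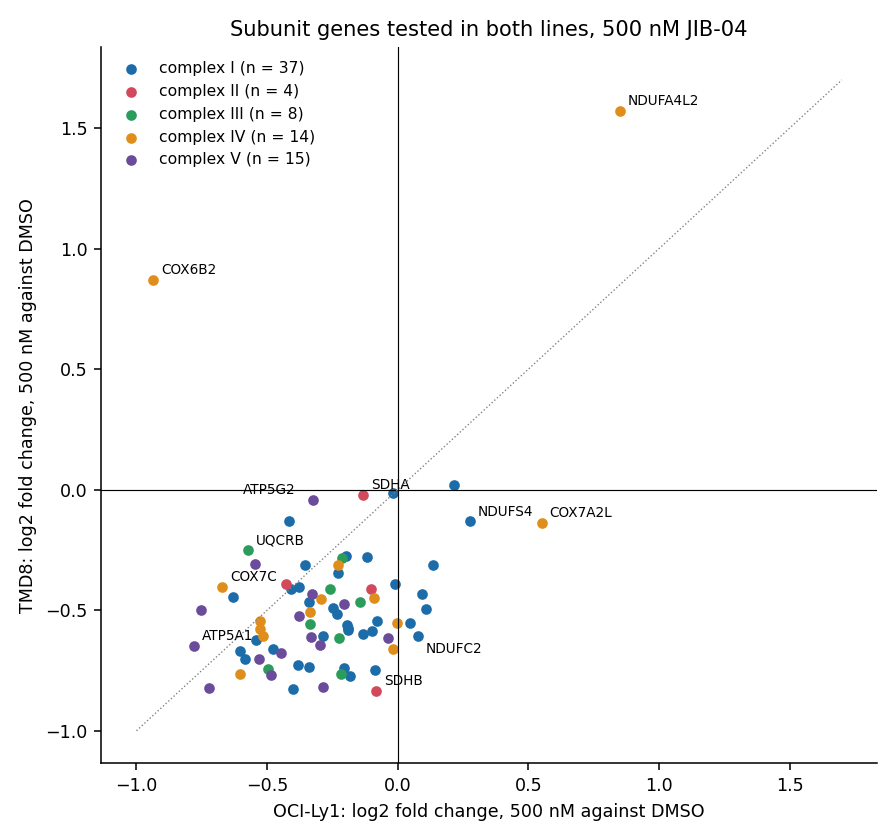
Log2 fold change at 500 nM against DMSO of each subunit gene tested in both lines, OCI-Ly1 on the x axis and TMD8 on the y axis, coloured by complex; the dotted line marks equal change. Most points lie below 0 on both axes and below the dotted line. SDHB (-0.08, -0.84) and NDUFC2 lie far below it, COX7A2L lies to the right of 0, and COX6B2 and NDUFA4L2 stand apart at the top.

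By mean CPM, 47 of 85 members in OCI-Ly1 (55.3%, against 30.4% of all tested genes) and 72 of 85 in TMD8 (84.7%, against 34%) fell at each step from DMSO to 150 nM to 500 nM. In OCI-Ly1 this held for 23 of 37 genes of complex I, 1 of 4 of complex II, 6 of 8 of complex III, 3 of 14 of complex IV (21.4%, below the share of all genes) and 11 of 15 of complex V. In TMD8 it held for 34 of 37, 3 of 4, 8 of 8, 11 of 15 and 14 of 15. From 150 to 500 nM, 51 members fell (all genes 21.1%) and 4 rose (all genes 25.1%) in OCI-Ly1, and 54 fell (all genes 15%) and 2 rose (all genes 13.7%) in TMD8. This comparison and that with DMSO share the 500 nM libraries. The TMD8 count between the doses moved with the libraries and the setting used. The lower calls were 34 without replicate 1 of 150 nM, and 35 calls in all remained without replicate 1 of 500 nM. With the length trend removed 25 were lower. None of the 2 rises in TMD8 held under every alternative, and 2 of the 4 in OCI-Ly1 did. COX6B2 and NDUFA10 rose from 150 to 500 nM in TMD8 (0.88 and 0.14). In OCI-Ly1 the 4 were NDUFA4L2, COX7A2L, NDUFS4 and NDUFA13 (1.0, 0.45, 0.24 and 0.16).

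Genes that build, feed or regulate the chain were read out from lists of known members. Beside all of the list counts that follow stand the shares of all tested genes at 500 nM, 25.9% called lower and 27.7% higher in OCI-Ly1, and in TMD8 30.7% and 29.9%. Of 15 assembly factors of complex I, 6 fell and 1 rose at 500 nM in OCI-Ly1, and 12 fell and 1 rose in TMD8. ACAD9 fell furthest in OCI-Ly1 (edgeR log2 fold change -0.70, SE 0.054, adjusted p = 6.11e-09) and NDUFAF2, an assembly chaperone, in TMD8 (edgeR log2 fold change -0.83, SE 0.12, adjusted p = 8.09e-06). NDUFAF6 rose in OCI-Ly1 (0.14) and NUBPL, which delivers iron-sulfur clusters, in TMD8 (0.22), and each fell in the other line (-0.35 for NDUFAF6 in TMD8 and -0.23 for NUBPL in OCI-Ly1). The fall of NDUFAF6 was lost without replicate 2 of 500 nM (-0.32, edgeR adjusted p = 0.062), and that of NUBPL without replicate 3 of 500 nM (-0.21, edgeR adjusted p = 0.072) or replicate 2 of DMSO (-0.17, edgeR adjusted p = 0.096). The rise of NDUFAF6 was lost without any 1 of 5 libraries, all but replicate 3 of DMSO (edgeR adjusted p 0.081 to 0.2). The rise of NUBPL was lost without replicate 2 of 500 nM (0.16, edgeR adjusted p = 0.15) or replicate 3 of DMSO (0.18, edgeR adjusted p = 0.1), and it turned to -0.13 on log2(TPM + 1).

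Of 24 assembly factors of complex IV, 8 fell and 1 rose in OCI-Ly1, a share of falls near that of all tested genes, and 19 fell and 1 rose in TMD8. COX19, a copper-handling protein, was the riser in both lines (0.31 in OCI-Ly1 and 0.38 in TMD8), but on log2(TPM + 1) not in TMD8 (0.015, limma adjusted p = 0.9). SCO2, a copper chaperone, fell furthest in TMD8 (edgeR log2 fold change -1.03, SE 0.17, adjusted p = 5.06e-05), and COX20 in OCI-Ly1 (-0.41). Of 10 factors for complexes II and III, 2 fell in OCI-Ly1 (LYRM7, -0.29, and C11orf83, -0.23), also near the share of all tested genes there. In TMD8 5 of these fell, C11orf83 furthest (-0.52). The C11orf83 call in OCI-Ly1 was lost without replicate 1 or 3 of 500 nM or replicate 2 of DMSO (edgeR adjusted p 0.063 to 0.079), and that of LYRM7 in TMD8 (-0.13) without replicate 1 of 500 nM (-0.12, edgeR adjusted p = 0.078). Of 3 factors for complex V, TMEM70 fell in both lines (-0.16 in OCI-Ly1 and -0.62 in TMD8) and ATPAF1 in TMD8 alone (-0.34). The OCI-Ly1 call of TMEM70 was lost without replicate 1 or 2 of 500 nM or replicate 2 or 3 of DMSO (edgeR adjusted p 0.065 to 0.12).

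Among 18 tested factors of mitochondrial transcription and its nuclear regulators, 6 fell in OCI-Ly1 (all genes 25.9%) and 15 in TMD8 (all genes 30.7%) at 500 nM, and none rose. The OCI-Ly1 share of falls was near that of all tested genes. NRF1 fell from 27.6 ± 1.16 to 19.6 ± 2.01 CPM in TMD8 (edgeR log2 fold change -0.48, SE 0.078, adjusted p = 3.27e-05) and by less in OCI-Ly1 (edgeR log2 fold change -0.22, SE 0.082, adjusted p = 0.033). The OCI-Ly1 call was lost without replicate 1 or 2 of 500 nM or replicate 2 of DMSO (edgeR adjusted p 0.1 to 0.13) and with library size alone (-0.13, edgeR adjusted p = 0.19). GABPA, the DNA-binding subunit of GABP, fell in TMD8 (edgeR log2 fold change -0.58, SE 0.083, adjusted p = 8.24e-06) and was not called in OCI-Ly1 (-0.10). TFAM, which packages and transcribes mitochondrial DNA, went from 178 ± 7.35 to 112 ± 4.74 CPM in TMD8 (edgeR log2 fold change -0.67, SE 0.058, adjusted p = 1.68e-08), and it was not called in OCI-Ly1 (-0.11) except with log2(TPM + 1) centred (-0.20, limma adjusted p = 0.047). On that centred scale the median of all tested genes in OCI-Ly1 stood at -0.12. Of the PGC-1 coactivators, PPARGC1A was near 0 (means of 0.12 to 0.21 CPM over the 6 groups) and untested. PPARGC1B fell in both lines (-0.49 and -0.64), as did PPRC1 (-0.42 in OCI-Ly1 and -0.94 in TMD8).

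Of 18 genes of the citric acid cycle and pyruvate dehydrogenase, which supply the chain with NADH, 12 fell in OCI-Ly1 (all genes 25.9%) and 18 in TMD8 (all genes 30.7%) at 500 nM. IDH2 fell furthest in OCI-Ly1 (edgeR log2 fold change -0.69, SE 0.056, adjusted p = 1.47e-08) and IDH3A, the catalytic subunit of the NAD-linked isocitrate dehydrogenase, in TMD8 (edgeR log2 fold change -1.10, SE 0.068, adjusted p = 2.44e-10). Of 12 genes of ubiquinone synthesis, 4 were higher and 1 lower in OCI-Ly1, and in TMD8 4 were higher and 5 lower. Their shares of rises lay near the 27.7% and 29.9% of all tested genes called higher. ADCK3 rose in both lines (0.40 in OCI-Ly1 and 0.21 in TMD8), COQ10A rose in TMD8 (0.50), COQ3 fell in both (-0.55 and -0.75), and PDSS1, which starts the side chain, fell in TMD8 alone (-1.04, against 0.0043). On log2(TPM + 1) COQ10A was not called in TMD8 (0.053, limma adjusted p = 0.66) and the TMD8 value of ADCK3 turned to -0.16. Among the carriers that exchange ADP, ATP and phosphate, SLC25A5 fell in both lines (-0.80 and -0.51) while its paralogue SLC25A4 rose (0.52 and 0.25). The SLC25A4 value in TMD8 turned to -0.11 on log2(TPM + 1).

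**Figure D5:**
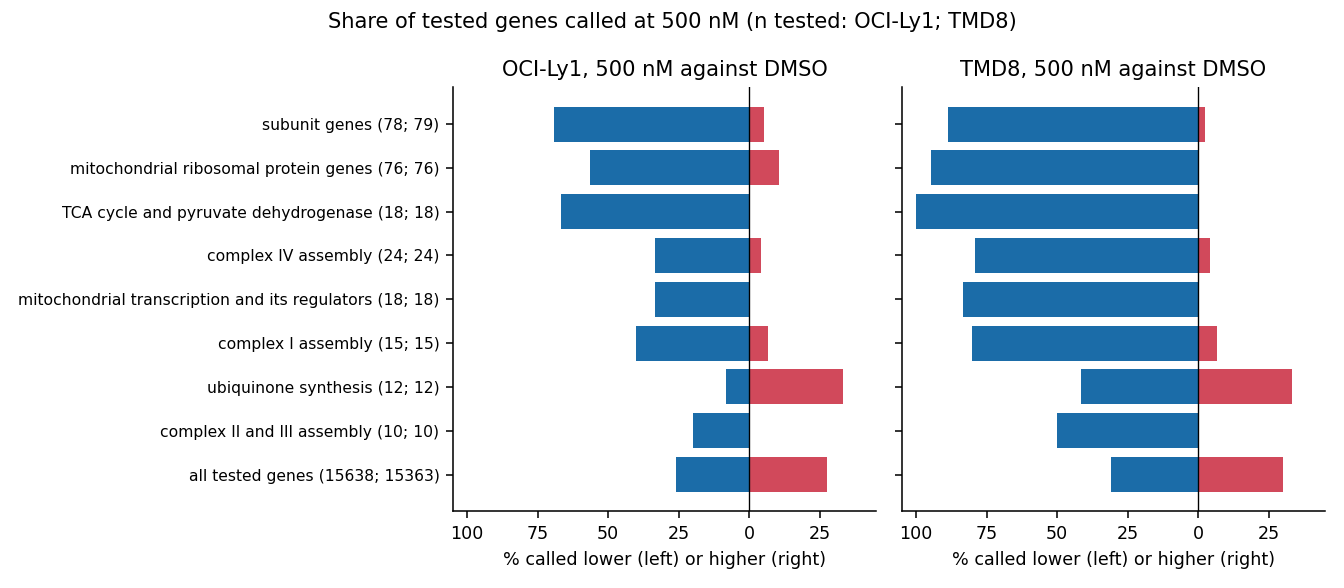
Percent of tested genes called lower (left, blue) or higher (right, red) at 500 nM against DMSO in each list, OCI-Ly1 in the left panel and TMD8 in the right, with the numbers tested beside each name. The lower bar of the subunit genes is longer than that of all tested genes in both panels, and in TMD8 the citric acid cycle list and the mitochondrial ribosomal proteins reach or come near 100%.

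The 76 genes of mitochondrial ribosomal proteins, whose product the chain needs for its mitochondrially encoded core, fell in most cases too: 43 fell (all genes 25.9%) and 8 rose (all genes 27.7%) in OCI-Ly1 (median -0.20) and 72 fell (all genes 30.7%) and none rose (all genes 29.9%) in TMD8 (median -0.59). The subunit genes had medians of -0.27 and -0.53. The difference between these sets was not tested.

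Subunit genes have short transcripts, with a median effective length of 0.263 (OCI-Ly1) and 0.260 (TMD8) times that of the median tested gene. In OCI-Ly1 59 and in TMD8 61 of them were among the shortest 20% of tested genes. The other genes of that shortest 20% had median log2 fold changes at 500 nM of -0.078 in OCI-Ly1 and -0.056 in TMD8, and 28.2% and 36.2% of them were called lower. The subunit genes outside the shortest 20% gave 13 lower calls of 19 in OCI-Ly1 (median -0.34) and 15 of 18 in TMD8 (median -0.45). With a smooth trend on length taken out of each contrast, members at 500 nM had 43 lower and 9 higher calls in OCI-Ly1 (median -0.15) and 67 lower and 4 higher in TMD8 (median -0.38).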

How the data were processed

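RNA of 18 libraries was read as paired ends of 101 cycles after ribosomal depletion, per the labels' protocols. The submitters' processing notes name kallisto 0.46.0, R 4.3.1, DESeq2 1.40.2 and the build hg19. The authors deposited estimated counts per gene, not scaled for depth, and TPM, which sum to 1000000 in each library. Counts were rounded and tested with edgeR 4.0.16 (R 4.3.3) by its quasi-likelihood test, with TMM and its low-count filter by group, on the 9 libraries of a line, or on all 18 for the line difference. The p-values were adjusted by Benjamini-Hochberg over all tested genes of a contrast, and 0.05 was the threshold. The SE is the absolute log2 fold change over the square root of F, and intervals are 1.96 SE to either side. Alternatives were DESeq2 1.42.0, library size alone, no filter, limma 3.58.1 on log2(TPM + 1), on log2(TPM + 0.1) or centred, the replicate number as a block, a length trend removed (lowess, span 0.3), only the 6 libraries compared, each library left out in turn, and subunit genes only. The fits were tested on simulated data. Members, lists and tests were chosen with earlier results of these data known. Named were, per complex and line, the largest and smallest fold change at 500 nM and the highest TPM, all complex II genes, restricted isoforms, the largest line differences and symbols that are no subunits. From each list the largest called rise and fall were named, with CYC1, CYCS, TFAM, NRF1, GABPA and PPARGC1A. Other genes named were chosen after their values were seen. A few genes are not reported here: members among them stay in the counts, and a B-cell marker was left out of its sum. No pair of libraries in a group agreed within sampling noise. Promoters are RefSeq's on GRCh38.p14, not the authors' build, and no hg19 coordinates were used.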

Additional observations from a re-analysis of the deposited data

Results flagged for a closer look

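The response to JIB-04 differed between the lines, by edgeR's interaction test (OCI-Ly1 less TMD8). At 150 nM, 51 members were called with the positive sign (all genes 15%) and 1 with the negative sign (all genes 8.33%). At 500 nM, 44 were called with the positive (all genes 28.2%) and 7 with the negative sign (all genes 18.1%). Single subunit genes with the largest called differences at 500 nM were SDHB (0.78), COX7A2L (0.72) and NDUFC2 (0.71) with the positive sign. With the negative sign they were COX6B2 (-1.78), UQCRB (-0.29) and ATP5G2 (-0.25). Line and medium changed together, so their parts cannot be told apart.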

How the results depend on the processing

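Of 60 members called at 500 nM in OCI-Ly1, 35 were called under all 15 alternatives, as were 67 of 74 in TMD8, 51 of 69 at 150 nM in TMD8 and 38 of 51 line differences at 500 nM (20 alternatives). Between the doses, 16 of 56 held in TMD8 and 36 of 55 in OCI-Ly1. For named genes, 3305 values under an alternative kept their side of the threshold, 161 lost the call, 55 gained it and 15 changed sign. These changes of sign are of values called in the main edgeR fit or under the alternative. A change of sign in values called in neither was not counted. Except where stated, the cause was not tested. The 15 were UQCRH (0.030), ATP5E (0.10) and USMG5 (0.025) in OCI-Ly1 at 500 nM with the length trend removed, and 6 genes in TMD8 at 500 nM on log2(TPM + 1) and log2(TPM + 0.1): NDUFA13 (-0.35 and -0.35), ATP5S (-0.15 and -0.18), NDUFB2-AS1 (-0.22 and -0.36), NUBPL (-0.13 and -0.16), ADCK3 (-0.16 and -0.17) and SLC25A4 (-0.11 and -0.12). All tested genes moved by a median of -0.22 and -0.31 on these 2 scales.

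Members called higher at 500 nM in OCI-Ly1 (4) were 7 with library size alone, 8 on log2(TPM + 1), 8 on log2(TPM + 0.1), 2 when centred and 9 with the length trend removed. Between the doses in OCI-Ly1 (4) they were 2 when centred and 7 with the length trend removed. At 150 nM in TMD8 (3) they were 1 with DESeq2, 5 with library size alone, 1 on log2(TPM + 1), 1 on log2(TPM + 0.1), 5 with the length trend removed and 1 for subunit genes only, where fewer genes were counted. At 500 nM in TMD8 (3) they were 1 on both TPM scales. Between the doses in TMD8 (2) they were 1 with DESeq2, no filter, both TPM scales, centring and the length trend removed, and that last setting gave 26 calls in all and 25 lower in place of 56 and 54. Line differences at 500 nM, 44 higher and 7 lower, were 75 and 1 on log2(TPM + 1) and 74 and 1 on log2(TPM + 0.1).

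Leaving out 1 library gave 0 to 1 calls at 150 nM in OCI-Ly1 (0 to 1 higher), 2 to 4 higher between the doses in OCI-Ly1, 1 to 3 higher at 150 nM and 1 to 3 at 500 nM in TMD8, and 35 to 60 calls between the doses in TMD8 (0 to 2 higher, 34 to 59 lower; 34 without replicate 1 of 150 nM and 35 without replicate 1 of 500 nM). Line differences ranged from 4 to 7 lower at 500 nM and 35 to 54 higher at 150 nM. Deviations of same-numbered libraries had r of -0.067 to 0.259 in OCI-Ly1 and -0.070 to 0.180 in TMD8, against -0.287 to 0.071 and -0.222 to 0.160 for other numbers. Since not every same-numbered pair passed 0.1, the numbers were not taken to pair the libraries; the higher values in OCI-Ly1, 0.259 for numbers 1 and 3, lay between DMSO and 150 nM. With the replicate block 60 members were called at 500 nM in OCI-Ly1, 74 in TMD8, and 53 and 54 line differences at 150 and 500 nM; in TMD8 at 500 nM the block ended the call of ATP5S (0.21, edgeR adjusted p = 0.063) and gave one to COX7A2L (-0.14, 0.035). Low counts limit NDUFA4L2 in TMD8 (6 to 39 a library) and COX6B2 in both lines (10 to 59).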
